A study of Mus musculus with 14 samples.

Results

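A set of 8 genes that mark commitment to the bone-forming lineage were followed by their Ensembl gene IDs through every sample of the study: 5 transcription factors (Runx2, Sp7, Dlx3, Dlx5 and Msx2) and 3 early products of osteoblasts (Pth1r, Alpl and Kazald1). All 8 were found, among 47729 genes in the count table. The cells came from the synovium, the lining of the knee joint, of C57BL6 mice aged 16 weeks, taken 10 days after an injection into the joint. Libraries 10 to 14 (n = 5) hold CD200-CD105+ cells and libraries 5 to 9 (n = 5) hold CD200+CD105- cells, both from mice with antigen-induced arthritis (AIA), that is, immunized with methylated bovine serum albumin in complete Freund's adjuvant and later injected with the same protein in the joint. Libraries 1 to 4 (n = 4) hold CD200+CD105- cells from non-immunized (NI) mice, which had phosphate buffered saline at each of those times. Every sample was sorted as negative for TER119 (red cells), CD31 (endothelium) and CD45 (leukocytes) and positive for CD51 (integrin alpha V), and was made from 200 to 500 cells. CD105+ cells from mice without arthritis are not analysed here, and arthritic CD105+ cells were compared with CD200+ cells of arthritic and of non-immunized mice. The labels do not say whether samples came from separate mice, or whether both arthritic populations came from the same mice. The p-values therefore measure the spread between these samples, which may be technical.

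Runx2 is the master transcription factor of the osteoblast lineage, and mice without it form no bone. Sp7 (osterix) acts downstream of Runx2 and is needed for the step from preosteoblast to osteoblast, while Dlx3, Dlx5 and Msx2 are homeodomain factors that act on Runx2 and on bone genes in response to bone morphogenetic proteins. Their early products include Pth1r, the receptor for parathyroid hormone, Alpl, the tissue-nonspecific alkaline phosphatase that removes pyrophosphate so that mineral can form, and Kazald1, a secreted protein of the insulin-like growth factor binding protein related family that is made in developing bone.

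The promoter sequences are described with motifs of the Runx, homeodomain and Sp families, to which the factors in the list belong. Whether Sp7 itself binds the GC box was not examined. Sequences are printed for Runx2, Alpl and Kazald1, which were all called lower in CD105+ cells than in non-immunized CD200+ cells. RefSeq promoter entries (GRCm38.p6) matched 5 of the 8 genes, with 9 start sites in all, and there was none for Sp7, Dlx3 or Dlx5. In the 250 bases before each start, both strands were searched for TGTGGT, the core motif of Runx factors, for TAATTA, a homeodomain core, and for GGGCGG, the GC box of Sp factors. Of 32851 promoters, 14.0% held the first motif, 4.84% the second and 32.7% the third. In Runx2 the Runx motif was found on the opposite strand, 80 bases before the RefSeq start, in chr17:44814692-44814717 (minus strand), where the capitals mark it. That start lies inside the gene as GENCODE annotates it, and so does the motif.
Runx2 site: gaggtcacaaACCACAtgattctgtc
The first start of Alpl held GC boxes in chr4:137796385-137796634 (minus strand) and the first start of Kazald1 held one in chr19:45074991-45075240 (plus strand), again in capitals.
Alpl promoter: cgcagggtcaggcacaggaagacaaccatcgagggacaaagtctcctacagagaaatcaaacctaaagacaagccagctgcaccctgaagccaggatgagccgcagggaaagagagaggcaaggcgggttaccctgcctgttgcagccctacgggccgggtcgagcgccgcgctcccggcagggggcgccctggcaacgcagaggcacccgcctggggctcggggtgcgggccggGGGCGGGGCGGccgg
Kazald1 promoter: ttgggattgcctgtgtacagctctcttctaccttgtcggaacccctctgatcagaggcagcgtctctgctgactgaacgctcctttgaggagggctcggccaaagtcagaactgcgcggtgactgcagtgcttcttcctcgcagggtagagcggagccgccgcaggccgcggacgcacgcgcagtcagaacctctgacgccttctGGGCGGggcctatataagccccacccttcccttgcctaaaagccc
Neither of these windows held the Runx motif or the homeodomain core. The window of Msx2, which lies wholly inside the gene as GENCODE annotates it, held the homeodomain core and a GC box. GC boxes were also found before the second and the third start of Pth1r and the second start of Kazald1, all inside the annotated genes. A match is a description of the letters and shows no binding.

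Total counts ranged from 12177437 to 40331071 per library, and the counts on genes from 2919666 to 18553803, since between 20.3% and 92.0% of counts fell on the ERCC spike-ins, synthetic RNAs added to each lysate. Spike-ins took over 80% in libraries 2, 5 and 6. Levels are given in CPM, the counts on genes scaled to a common library total after TMM, on which scale 3 counts in 1 library equal 0.171 to 0.914 CPM, a floor that covers counting error only. The labelled sort was partly visible in the RNA. Cd200 averaged 2.30 ± 5.14 CPM in arthritic CD105+ cells, all of it in library 12 at 11.5 CPM, against 420 ± 98.8 in arthritic CD200+ and 593 ± 178 in non-immunized CD200+ cells (SD, n = 5, 5 and 4). Eng, which encodes CD105, followed the label in part, at 6.63 ± 4.87, 0.504 ± 0.584 and 5.29 ± 5.71 CPM in the same groups. In arthritis it was higher in CD105+ than in CD200+ cells without passing the test (log2 change 3.64, SE 1.64, adjusted p = 0.170, edgeR). Non-immunized CD200+ cells were near CD105+ cells. Red cell genes were present throughout the CD105+ libraries: the 10 erythroid markers summed to 27090 to 248089 CPM there, to 4.25 to 10408 in arthritic CD200+ cells, where Klf1, Epor and Slc4a1 were at 0, and to 1174 to 10223 in non-immunized CD200+ cells. CD105+ library 10 had the highest sum and no count of any of the 8 genes. It also had the fewest counts on genes among CD105+ libraries, 5968096, which limits what its zeros show. Libraries 11 to 14 had sums of 57071, 27090, 72149 and 86751 CPM and counts for 4, 3, 4 and 3 of the 8 genes. The part of red cell transcripts in the results was not tested.

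**Figure D1:**
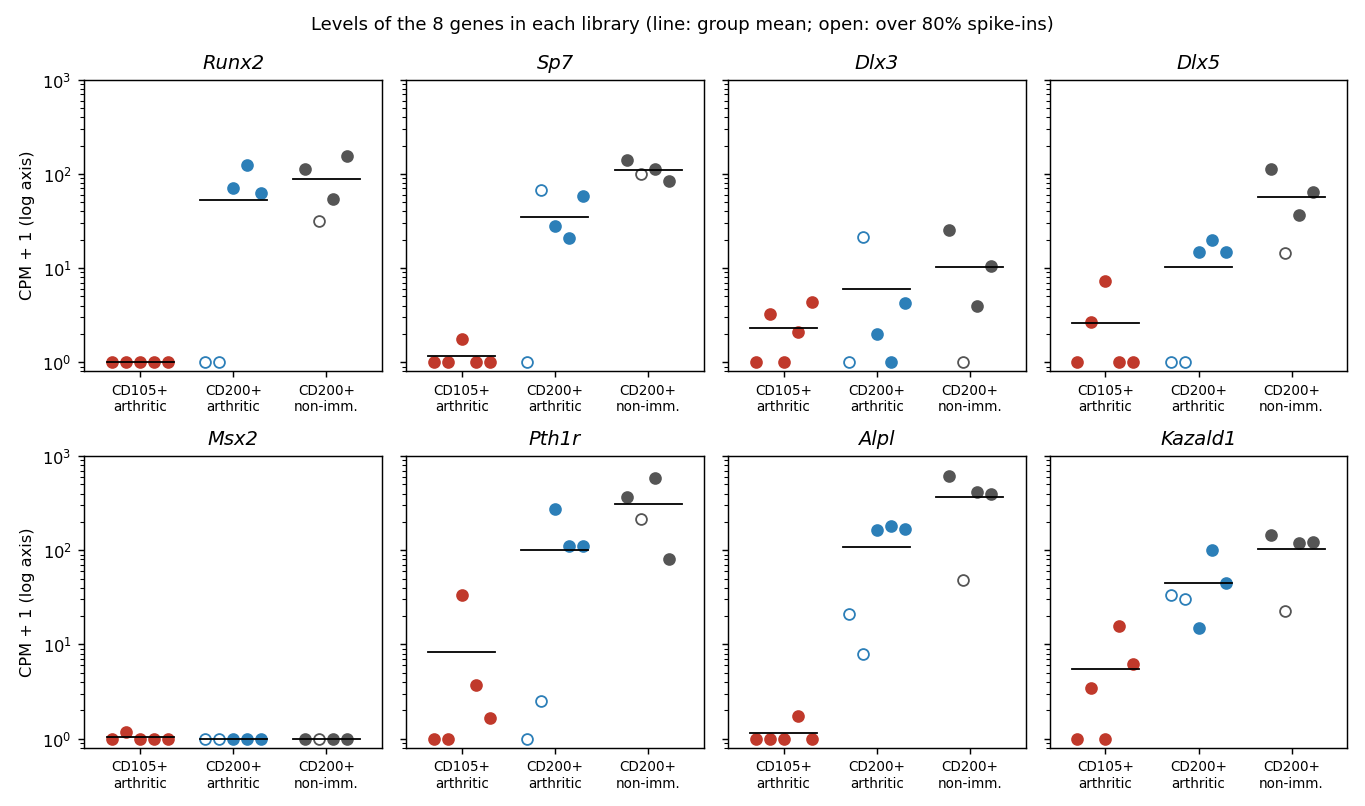
Level of each of the 8 genes in every library, as CPM + 1 on a log axis, by group. Each point is 1 library, open points are the libraries with over 80% spike-ins, and lines are group means. Runx2 is at 0 in all 5 CD105+ libraries, and the open points of arthritic CD200+ cells are the lowest of their group for Alpl and for Pth1r.

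Of the 8 genes, 7 were found in CD200+ cells, at levels that varied widely among libraries, and CD105+ cells held 0 or low levels of each. Dlx3 was low in CD200+ cells as well. The number of the 8 with a count was 0, 4, 3, 4 and 3 in CD105+ libraries 10 to 14. It was 2, 5, 7, 6 and 7 in arthritic CD200+ libraries 5 to 9, and 7, 6, 7 and 7 in non-immunized libraries 1 to 4. Library 5, with 87.4% spike-ins, held counts for Alpl and Kazald1 alone.

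Runx2 (ENSMUSG00000039153, chromosome 17, 44495987 to 44814797, minus strand, in GRCm38 as annotated by GENCODE M21, as for the genes below) was at 0 counts in all 5 CD105+ libraries. In arthritic CD200+ libraries 5 to 9 it stood at 0, 0, 70.2, 124 and 61.9 CPM, and in non-immunized CD200+ libraries 1 to 4 at 112, 30.5, 52.5 and 156 CPM. The 2 zeros among arthritic CD200+ cells are the libraries with the highest shares of spike-ins, and the other 3 lie within the range of the non-immunized libraries. Runx2 was called lower in CD105+ cells than in arthritic CD200+ cells (adjusted p = 0.0148) and than in non-immunized CD200+ cells (adjusted p = 0.0111; edgeR quasi-likelihood test, Benjamini-Hochberg adjustment, as for every adjusted p below). The means of these CD200+ groups were 1069-fold and 1828-fold above a floor of 3 counts over the CD105+ group. That floor leaves out the spread between libraries, and the 2 arthritic CD200+ libraries at 0 overlap with CD105+ cells. Between arthritic and non-immunized CD200+ cells the log2 change was -0.77 (SE 1.54, adjusted p = 1.0). In samples of sorted cells, fewer cells of a type and less RNA per cell cannot be told apart.

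The Runx2 locus also holds antisense genes, and how the counting treated strand is not known, so reads of the 2 strands cannot be told apart. Runx2os1, whose exons overlap those of Runx2, stood at 0.540 CPM in CD105+ library 11 and at 0 in the other 4 CD105+ libraries. In arthritic CD200+ libraries 5 to 9 it stood at 0, 38.1, 0.906, 2.46 and 0 CPM, and in non-immunized libraries 1 to 4 at 25.7, 0, 14.7 and 11.5 CPM. Library 6 thus had 125 counts on Runx2os1 and none on Runx2.

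Sp7 (ENSMUSG00000060284, chromosome 15, 102356606 to 102367182, minus strand) had 8 counts in CD105+ library 12 (0.767 CPM) and none in the other 4 CD105+ libraries. Arthritic CD200+ libraries 5 to 9 held 0, 65.8, 26.7, 19.8 and 57.9 CPM, and non-immunized libraries 1 to 4 held 141, 99.4, 111 and 82.7 CPM. Sp7 was the most even of the 7 genes among non-immunized libraries, at 108 ± 24.6 CPM, and each arthritic CD200+ library lay below all 4. Sp7 fell by 7.73 (log2) in CD105+ cells against arthritic CD200+ cells (SE 1.67, adjusted p = 0.0109) and fell by 9.40 against non-immunized CD200+ cells (SE 1.79, adjusted p = 0.00495). The size of both falls rests on the 8 counts in library 12: without it CD105+ cells were at 0 and the fitted changes, which are no bounds, were -11.71 and -13.38 (adjusted p = 0.00818 and 0.00416). In arthritic against non-immunized CD200+ cells the log2 change was -1.67 (SE 1.29, adjusted p = 1.0), so the separation of the 2 groups did not pass the test.

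Dlx5 (ENSMUSG00000029755, chromosome 6, 6877805 to 6882085, minus strand) was found in CD105+ libraries 11 and 12, at 1.68 and 6.32 CPM, and at 0 in the other 3. It stood at 0, 0, 13.8, 18.8 and 13.7 CPM in arthritic CD200+ libraries 5 to 9, and at 112, 13.5, 35.5 and 62.7 CPM in non-immunized libraries 1 to 4. The 3 arthritic CD200+ libraries with counts lie close together, near the lowest non-immunized library. The log2 change was -2.52 (SE 1.76, adjusted p = 0.407) in CD105+ against arthritic CD200+ cells, -5.11 (SE 2.00, adjusted p = 0.105) in CD105+ against non-immunized CD200+ cells and -2.58 (SE 1.81, adjusted p = 1.0) in arthritic against non-immunized CD200+ cells. Its neighbour Dlx6, a factor of the same family, stood at 1.05 CPM in CD105+ library 12 alone, at 5.06, 0.137 and 2.27 CPM in arthritic CD200+ libraries 7 to 9 and at 7.15, 1.08 and 2.56 CPM in non-immunized libraries 1, 3 and 4.

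Dlx3 (ENSMUSG00000001510, chromosome 11, 95120119 to 95125296, plus strand) was low in all groups. It averaged 1.34 ± 1.46 CPM in CD105+ cells, against 4.93 ± 8.75 CPM in arthritic and 9.23 ± 10.9 CPM in non-immunized CD200+ cells (SD, n = 5, 5 and 4). Library 6 carried the arthritic CD200+ mean with 20.4 CPM, and the other 4 lay between 0 and 3.28 CPM. The CD105+ libraries spanned much the same range, from 0 to 3.32 CPM. Of the 3 comparisons none passed, with adjusted p = 0.621, 0.430 and 1.0 for CD105+ against arthritic CD200+, CD105+ against non-immunized CD200+ and arthritic against non-immunized CD200+ cells. Msx2 (ENSMUSG00000021469, chromosome 13, 53466884 to 53473074, minus strand) had 3 counts in CD105+ library 11 (0.180 CPM) and none in the other 13 libraries, too few to be tested.

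Pth1r (ENSMUSG00000032492, chromosome 9, 110722085 to 110747145, minus strand) stood at 0, 0, 32.7, 2.74 and 0.665 CPM in CD105+ libraries 10 to 14. Arthritic CD200+ libraries 5 to 9 held 0, 1.52, 276, 109 and 109 CPM, and non-immunized libraries 1 to 4 held 365, 212, 586 and 79.9 CPM. Its highest library in CD105+ cells was library 12, in arthritic CD200+ cells library 7 and in non-immunized CD200+ cells library 3. The log2 change was -3.78 (SE 1.80, adjusted p = 0.197) in CD105+ against arthritic CD200+ cells, -5.42 (SE 1.97, adjusted p = 0.0828) against non-immunized CD200+ cells and -1.65 (SE 1.71, adjusted p = 1.0) in arthritic against non-immunized CD200+ cells. The overlapping gene Myl3 had counts in library 7 alone, at 4.91 CPM. Without library 12 the second of these comparisons passed, at -8.40 (SE 2.15, adjusted p = 0.0248), and the first was -6.75 (SE 1.99, adjusted p = 0.0524).

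Pth1r is also made by growth plate chondrocytes, and cartilage genes were highest in the same 3 libraries. The 8 chondrocyte markers summed to 5798 CPM in CD105+ library 12, against 16.9 to 24.1 CPM in the other 4 CD105+ libraries. They summed to 4736 CPM in library 7, where the other arthritic CD200+ libraries held 127 to 481 CPM, and to 19271 CPM in library 3, where the other non-immunized libraries held 1209 to 6356 CPM. All 8 markers had counts in each group, and their part in the result was not tested.

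Alpl (ENSMUSG00000028766, chromosome 4, 137741733 to 137796384, minus strand) had 13 counts in CD105+ library 13 (0.742 CPM) and none in the other 4 CD105+ libraries. It stood at 20.02, 7.01, 163, 182 and 169 CPM in arthritic CD200+ libraries 5 to 9, and at 608, 47.8, 412 and 390 CPM in non-immunized libraries 1 to 4. Alpl and Kazald1 alone had counts in all 9 CD200+ libraries, and every CD105+ library lay below all CD200+ libraries for Alpl. Alpl fell by 9.17 (log2) in CD105+ cells against arthritic CD200+ cells (SE 1.50, adjusted p = 0.00215) and fell by 10.92 against non-immunized CD200+ cells (SE 1.60, adjusted p = 0.000969). The size of both falls rests on the 13 counts in library 13: without it CD105+ cells were at 0 and the fitted changes, again no bounds, were -13.31 and -15.06 (adjusted p = 0.00293 and 0.00164). In arthritic against non-immunized CD200+ cells the log2 change was -1.75 (SE 1.09, adjusted p = 1.0). Without the 3 libraries of over 80% spike-ins, Alpl averaged 171 ± 9.50 CPM in arthritic CD200+ cells and 470 ± 120 CPM in non-immunized CD200+ cells (SD, n = 3 each), and that comparison did not pass either.

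Kazald1 (ENSMUSG00000025213, chromosome 19, 45075241 to 45079289, plus strand) stood at 0, 2.46, 0, 14.7 and 5.24 CPM in CD105+ libraries 10 to 14. Arthritic CD200+ libraries 5 to 9 held 32.2, 29.2, 14.1, 101 and 44.2 CPM, and non-immunized libraries 1 to 4 held 142, 21.7, 118 and 122 CPM. The highest CD105+ library lay just above the lowest arthritic CD200+ library and below all non-immunized libraries. Against non-immunized CD200+ cells Kazald1 fell by 4.48 on the log2 scale in CD105+ cells (SE 1.32, adjusted p = 0.0395), a call that was lost in 7 of the 14 fits that left out 1 library (adjusted p from 0.0275 to 0.0799 over the 14). Without library 13, the highest of the CD105+ libraries, the change was -5.67. In CD105+ against arthritic CD200+ cells the log2 change was -3.28 (SE 1.23, adjusted p = 0.0998), and in arthritic against non-immunized CD200+ cells it was -1.20 (SE 1.19, adjusted p = 1.0).

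**Figure D2:**
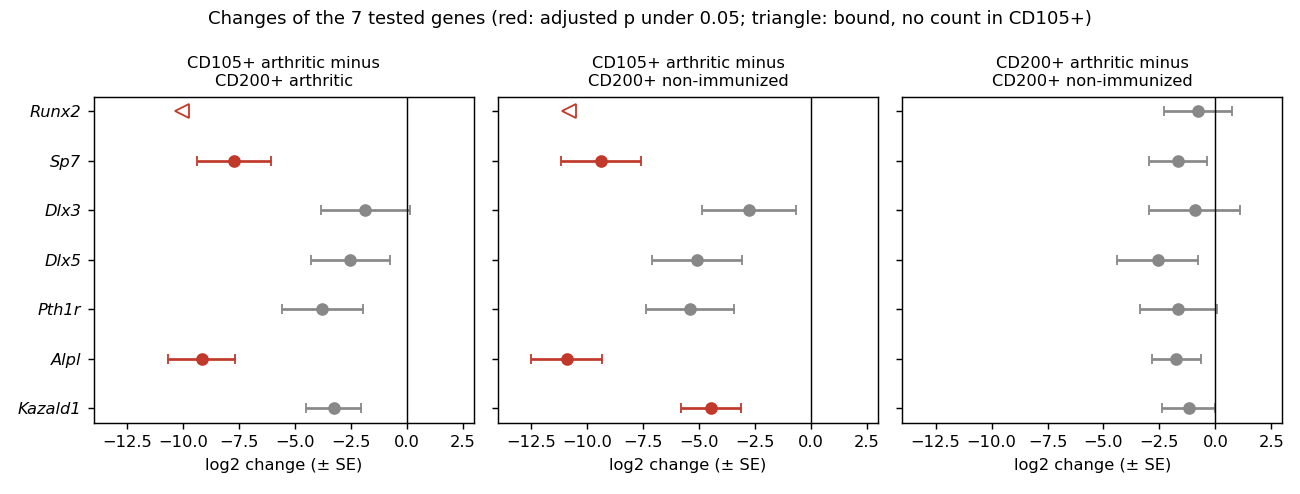
Log2 change of the 7 tested genes in the 3 comparisons, with bars of 1 SE. Red symbols passed an adjusted p of 0.05, and the triangles for Runx2 are bounds for its group means, from a floor of 3 counts over the group. All 7 changes are negative in every panel, and in arthritic against non-immunized CD200+ cells none is red.

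Read together, 3 of the 7 tested genes were called lower in CD105+ against arthritic CD200+ cells (Runx2, Sp7 and Alpl), where 6.48% of 15015 tested genes were called lower and 4.79% higher. In CD105+ against non-immunized CD200+ cells 4 were called lower, with Kazald1 as the fourth, where 7.63% of all genes were called lower and 5.57% higher. The filter asks for counts in about as many libraries as the smallest group holds, and none of the 7 had counts in more than 3 CD105+ libraries. They passed it only with CD200+ libraries, so a call in CD105+ cells was from the start more likely to be lower. The shares over all genes include genes without this limit. None of the 7 genes was called in arthritic against non-immunized CD200+ cells, where 0.0% of all genes were called in either direction by edgeR, 915 genes had an unadjusted p under 0.05, limma voom called 4 genes and DESeq2 303. On simulated data this comparison recovered 0 of 50 genes changed 4-fold, so the lack of a call does not show a lack of change. The median log2 change of the 7 genes was -3.78, -5.42 and -1.65 in the 3 comparisons in that order, beside -0.05, -0.24 and -0.10 over all genes tested. Without CD105+ library 12 the first and the second of these medians were -6.75 and -8.40. Groups did not overlap for Alpl in the first comparison (background 6.33%), for 6 genes in the second (11.5%) and for Sp7 in the third (1.18%). The comparisons share samples, so their values are not independent of each other. With library sizes from the spike-ins, the median of all genes was 1.22 and 1.21 on the log2 scale in the first and the second comparison, and 719 genes called higher and 973 called lower became 390 and 155 in the first, while 836 and 1146 became 167 and 111 in the second. On that scale the median log2 change of the 4 tested transcription factors was -4.86 and -6.78 and that of Pth1r, Alpl and Kazald1 was -4.12 and -5.25, and 3 of the 7 genes were called lower in each. Relative to the median of all genes these were -6.08 and -7.99 for the factors and -5.34 and -6.46 for the other 3. Dlx3 alone turned sign, in the first. With RLE factors the median of all genes was -0.14, -0.50 and -0.27 in the 3 comparisons, and 3, 4 and 0 of the 7 genes were called. Without the 3 libraries of over 80% spike-ins the calls were 3, 6 and 0, with Dlx5 and Pth1r added in the second. More genes were called lower over all genes there too, 1159 and 1597 of 15843 in the first and the second comparison.

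Per kilobase of exon, which allows levels of different genes to be compared roughly, Pth1r and Alpl led in CD200+ cells. The length is that of all annotated exons of a gene together, 8837 bases for Runx2 and 2263 for Dlx5. Transcripts in these cells may be shorter, so the order, and the size of the ratios below, may depend on this choice. In arthritic CD200+ cells the order of the mean levels was Pth1r at 33.9 ± 38.5, Alpl at 26.8 ± 21.5, Kazald1 at 26.2 ± 19.8, Sp7 at 10.0 ± 8.05, Runx2 at 5.79 ± 5.93, Dlx5 at 4.09 ± 3.84 and Dlx3 at 1.89 ± 3.36 CPM per kilobase (SD, n = 5). In non-immunized CD200+ cells it was Pth1r at 106 ± 74.4, Alpl at 90.4 ± 57.7, Kazald1 at 60.1 ± 32.1, Sp7 at 31.9 ± 7.23, Dlx5 at 24.7 ± 18.7, Runx2 at 9.91 ± 6.43 and Dlx3 at 3.54 ± 4.19 CPM per kilobase (SD, n = 4). Msx2 was at 0 in both groups. Neighbours in either order differed by less than the larger of their SDs. In CD105+ cells the highest means were those of Kazald1, 2.67 ± 3.64, and Pth1r, 2.47 ± 4.88 CPM per kilobase (SD, n = 5), and the other 6 were under 1.

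The proportions among the genes also differed between libraries. Dlx5 relative to Runx2, per unit of length, was 0.768, 0.592 and 0.864 in arthritic CD200+ libraries 7 to 9, the 3 with counts of Runx2, and 3.91, 1.72, 2.64 and 1.57 in non-immunized libraries 1 to 4, which did not overlap in these 7 libraries. Sp7 relative to Runx2 was 0.987, 0.416 and 2.43 in arthritic CD200+ libraries 7 to 9 and 3.29, 8.49, 5.48 and 1.38 in non-immunized libraries 1 to 4, with overlap. Alpl relative to Runx2 overlapped too, at 3.21 to 5.98 in arthritic CD200+ libraries 7 to 9 and 3.44 to 17.2 in non-immunized libraries, and so did Alpl relative to Pth1r, at 0.429 to 3.34 in arthritic CD200+ libraries 6 to 9 and 0.164 to 3.54 in non-immunized libraries. No ratio was tested, Runx2 was at 0 in arthritic CD200+ libraries 5 and 6, and the share of ratios without overlap over all genes was not computed.

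**Figure D3:**
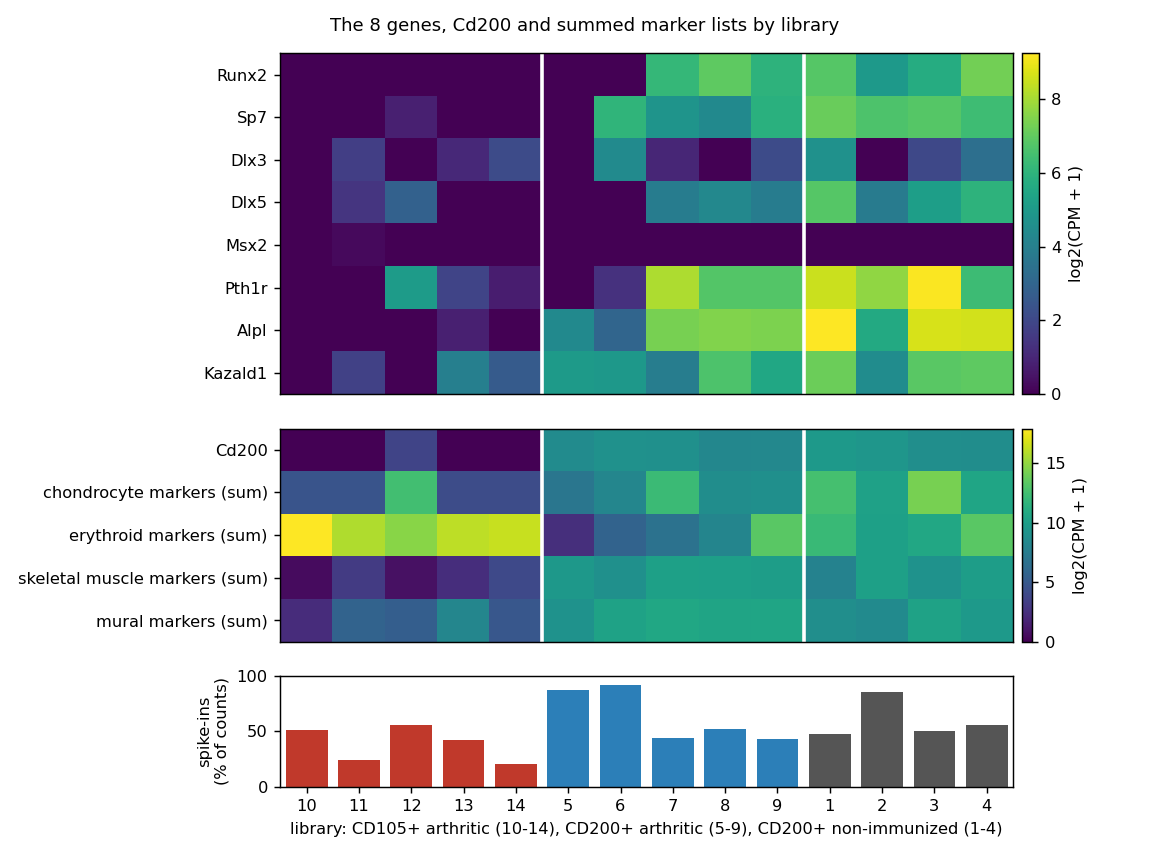
Level of the 8 genes in the 14 libraries as log2(CPM + 1), above Cd200, the summed marker lists of other cell types and the share of spike-ins per library. The highest values in CD105+ libraries 10 to 14 are those of Pth1r in library 12 (32.7 CPM) and Kazald1 in library 13 (14.7 CPM), and library 5 is at 0 for all genes but Alpl and Kazald1.

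Part of the other transcription factors of the osteoblast lineage fell in CD105+ cells. Of 23 tested, 7 fell and none rose in CD105+ against arthritic CD200+ cells (median log2 change -2.78, with means ± SD below over n = 5, 5 and 4), and 8 fell and none rose against non-immunized CD200+ cells (median -3.56). These counts, and those of the lists below, stand beside 6.48% and 7.63% of all genes called lower in the 2 comparisons. Mef2c, a factor of bone and muscle, averaged 5.42 ± 3.81 CPM in CD105+ cells, against 59.6 ± 47.1 in arthritic and 129 ± 40.8 CPM in non-immunized CD200+ cells (adjusted p = 0.00793 and 0.00213). Runx1, the family member known for blood stem cells, stood at 18.5 ± 11.2, 106 ± 38.4 and 146 ± 82.6 CPM in the same groups (adjusted p = 0.0174 and 0.00879). Tead1, a partner of the Hippo pathway's effectors, stood at 4.30 ± 2.83, 49.0 ± 33.9 and 51.0 ± 20.5 CPM (adjusted p = 0.00693 and 0.00633). With spike-in scaling 1 of the 23 fell in each of these comparisons.

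Part of the genes that hold the osteoblast factors back fell as well. Of 18, 5 fell and none rose in CD105+ against arthritic CD200+ cells (median -2.52) and 6 fell and none rose against non-immunized CD200+ cells (median -3.22). The inhibitors of DNA binding Id3, Id2 and Id1, targets of bone morphogenetic proteins, were among them: Id3 averaged 111 ± 94.3 CPM in CD105+ cells, against 1867 ± 340 CPM in arthritic and 2515 ± 1037 CPM in non-immunized CD200+ cells (adjusted p = 0.000361 and 0.000271). Hdac4, a deacetylase that binds Runx2, stood at 4.89 ± 3.23, 33.5 ± 23.3 and 33.4 ± 6.25 CPM (adjusted p = 0.0273 and 0.0283). With spike-in scaling none of the 18 was called in either comparison.

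Around the receptor, 4 of 17 tested genes of parathyroid hormone receptor signalling fell in CD105+ against arthritic CD200+ cells (median -1.69) and 2 fell against non-immunized CD200+ cells (median -1.52), and none rose. The second count is close to the 7.63% called lower over all genes. Pde4b, a phosphodiesterase that degrades cyclic AMP, averaged 5.84 ± 3.71 CPM in CD105+ cells, against 536 ± 609 CPM in arthritic CD200+ cells and 718 ± 853 CPM in non-immunized CD200+ cells (adjusted p = 0.00172 and 0.00128). Gnas, the stimulatory G protein subunit that couples the receptor to adenylyl cyclase, stood at 446 ± 134, 1158 ± 391 and 1310 ± 323 CPM (adjusted p = 0.0134 and 0.00805). Prkar1a, a regulatory subunit of protein kinase A, and Rgs2, a regulator of G protein signalling, were called lower against arthritic CD200+ cells alone (adjusted p = 0.0409 and 0.0437), and reached adjusted p = 0.180 and 0.0991 against non-immunized CD200+ cells. With spike-in scaling 1 of the 17 fell in each comparison, and the medians of the list were -0.13 and 0.04. Relative to the median of all genes these were -1.35 and -1.17, against -1.64 and -1.28 with TMM.

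Around Alpl, the genes that set phosphate and pyrophosphate were few. Of 6 tested, 1 fell in CD105+ against arthritic CD200+ cells (median -1.93) and 2 fell against non-immunized CD200+ cells (median -2.72). Enpp6, a phosphodiesterase of the choline pathway found in bone, fell in both comparisons, with 0.216 ± 0.483 CPM in CD105+ cells, against 18.8 ± 16.0 CPM in arthritic CD200+ cells and 69.8 ± 55.2 CPM in non-immunized CD200+ cells (adjusted p = 0.0350 and 0.0139). Ank, a membrane transporter that raises pyrophosphate outside the cell, was called lower against non-immunized CD200+ cells alone, at 67.9 ± 31.3 CPM in CD105+ cells, 115 ± 71.6 in arthritic and 329 ± 205 CPM in non-immunized CD200+ cells (adjusted p = 0.471 and 0.0328). None of the 6 rose. With so few genes these counts say little of the list beside 6.48% and 7.63% over all genes. With spike-in scaling none of the 6 was called in either comparison, so that the calls of Enpp6 and Ank were lost. Without the 3 libraries of over 80% spike-ins 2 and 3 of the 6 fell, beside 1159 and 1597 of 15843 genes called lower. Without library 12, 0 and 2 of the 6 fell.

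Genes of later osteoblasts and osteocytes had the largest share called lower of the 5 lists in both comparisons. In CD105+ against arthritic CD200+ cells 9 of 15 tested fell (median -4.86) and against non-immunized CD200+ cells 14 of 15 fell (median -6.29), and none rose. Ibsp, the bone sialoprotein of mineralizing matrix, averaged 0.161 ± 0.235 CPM in CD105+ cells, against 2866 ± 1668 CPM in arthritic CD200+ cells and 6099 ± 1362 CPM in non-immunized CD200+ cells (adjusted p = 9.58e-05 and 8.02e-05). Phex, the phosphate-regulating endopeptidase of osteocytes, stood at 0.252 ± 0.563, 86.5 ± 73.2 and 347 ± 377 CPM (adjusted p = 0.00441 and 0.00164). With spike-in scaling 6 of the 15 fell in each comparison. Without the 3 libraries of over 80% spike-ins, 13 and 14 of the later genes fell in the 2 comparisons, beside 1159 and 1597 of 15843 genes called lower. Without library 12, 9 and 14 of the later genes fell. None of the 5 lists had a called gene in arthritic against non-immunized CD200+ cells.

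**Figure D4:**
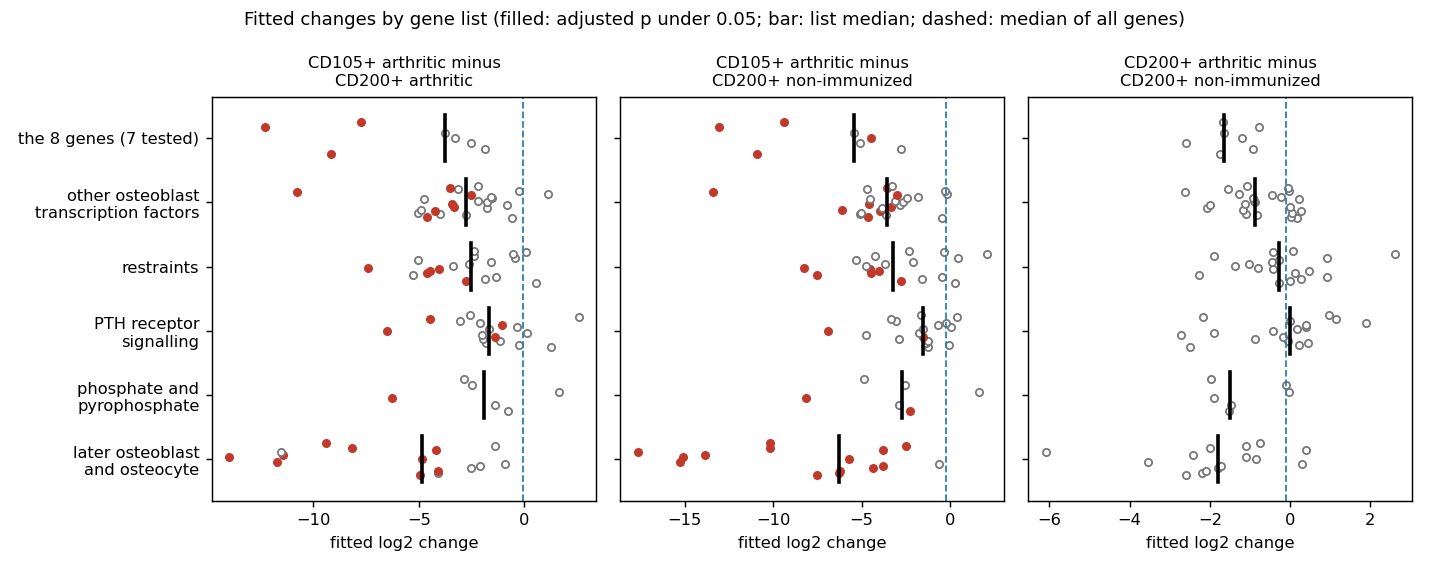
Fitted log2 change of the genes in each list, in 3 comparisons, with the list median as a bar and the median of all genes as a dashed line. Filled points passed an adjusted p of 0.05. The changes of Runx2 and other genes at 0 in CD105+ cells are fitted values, not bounds. In both panels with CD105+ cells all filled points lie below 0.

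Markers of some other cell types differed between the groups beside these lists, and those of others overlapped. The 10 skeletal muscle markers summed to 0.446 to 14.2 CPM in CD105+ libraries, 517 to 1184 in arthritic CD200+ libraries and 250 to 1169 CPM in non-immunized CD200+ libraries, with Myh4, Myh1, Ckm, Myl1, Pax7 and Myf5 at 0 in CD105+ cells. The 7 mural cell markers summed to 3.79 to 303, 565 to 1639 and 376 to 1285 CPM in the same groups. Sums of the 8 synovial fibroblast markers overlapped between all groups, at 94.0 to 5695, 567 to 2768 and 317 to 2962 CPM. So did the 7 endothelial markers, at 11.8 to 32.6, 0.137 to 125 and 0.187 to 39.1 CPM. The 7 osteoclast markers overlapped too, at 354 to 551, 61.8 to 444 and 98.3 to 608 CPM. Leukocyte markers were high in single libraries, although cells were sorted as CD45-negative. Macrophage and neutrophil markers summed to 5831 and 1030 CPM in CD105+ library 11. In non-immunized library 3, B and plasma cell markers summed to 6786 and neutrophil markers to 5750 CPM, and the latter to 1983 CPM in library 4. Every other sum of these lists was at most 276 CPM. Their part in the results was not tested.

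The genes whose pattern over the 14 libraries was most like a member's were ranked by the root mean square difference of log2(CPM + 1), each centred on its mean, among 11136 genes. For Runx2 these included Fam78b at 0.76 and Tnfrsf19 at 0.83. For Sp7 they were Agt at 0.78, Slit2 at 0.78 and Ptgis at 0.81, and for Dlx5 Rgs3 at 0.60, Lrp4 at 0.76 and Gja1 at 0.77. For Dlx3, D930016D06Rik at 0.85, Morc2a at 0.86 and Gm16153 at 0.88 came first, but its counts are near 0 in most libraries. For Pth1r the nearest were Nt5e at 1.31, Cgref1 at 1.32 and Rgs3 at 1.37, for Alpl Cdh2 at 1.10, Col8a1 at 1.15 and Tnfrsf19 at 1.23 and for Kazald1 Cd2ap at 0.90, 2700081O15Rik at 0.93 and Cald1 at 0.96. Between the members themselves the smallest differences were those of Runx2 and Alpl, 1.32, and of Runx2 and Dlx5, 1.41.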

How the data were processed

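RNA sequencing counts of 14 libraries were used, made from lysed sorted cells with SMART-Seq v4 amplification, ERCC spike-ins and Nextera XT, per the labels' protocols. The authors deposited a table of whole-number read counts per gene, per the file headers; cutadapt, HISAT2, StringTie and edgeR are named without versions and the builds as GRCm38 and mm10, per the submitters' processing notes. The sources used here do not say how strand was treated. A second deposited table of 14322 entries, named as normalized, holds raw counts identical to the first and served as an alternative set of genes. Of 47821 entries, 92 spike-ins were left out of library sizes. No pair of libraries in a group was a duplicate (26 pairs checked).

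edgeR 4.0.16 (R 4.3.3) was used with filterByExpr at a minimum count of 10 (15015 genes) and TMM factors. There was 1 robust quasi-likelihood fit of 3 groups, with two-sided tests and Benjamini-Hochberg adjustment over all genes at 0.05. The common BCV was 1.28 and the prior degrees of freedom 2.99 at the median. BCV is the variation between libraries beyond counting error, which may be technical here. SEs are approximate, the absolute log2 change over the square root of F. Alternatives used DESeq2 1.42.0, limma 3.58.1 (voom with sample weights), other scalings and filters, fits of 2 groups, and libraries left out. Tests were checked on simulated data. In arthritic against non-immunized CD200+ cells, 0 of 50 genes changed 4-fold, 6 of 50 changed 16-fold and 17 of 50 changed 64-fold were recovered. At 64-fold, 17 and 14 of 50 were recovered in CD105+ against arthritic and against non-immunized CD200+ cells. A gene without a call is therefore not shown to be unchanged. Positions and exon lengths came from GENCODE M21. The members, lists, rule for names and alternatives were chosen with earlier results of these data known. From each list the genes past the threshold with the smallest p were followed, up to 4 per comparison and direction, and the 3 most alike genes per member. A few genes that the rule would name are not reported here; they were kept in list counts and medians but not searched for outlying libraries.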

Additional observations from a re-analysis of the deposited data

Results flagged for a closer look

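Of 81 sets of values, each of 1 gene in 1 group of 4 or 5 libraries, 18 had a library far from the rest of its group. In 8 of the 18 all other libraries of the group were at 0, so that any count stands apart. The rate of about 1 in 20 that chance gives is not meant for such sets. Among the 8 genes these were Sp7 in CD105+ library 12 (0.767 CPM), Dlx5 in CD105+ library 12 (6.32 CPM), Pth1r in CD105+ library 12 (32.7 CPM, the others 0 to 2.74), Msx2 in CD105+ library 11 (0.180 CPM), Alpl in CD105+ library 13 (0.742 CPM) and Dlx3 in arthritic CD200+ library 6 (20.4 CPM, the others 0 to 3.28). Sp7, Msx2 and Alpl were at 0 in the other CD105+ libraries.

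Among the other named genes, CD105+ library 12 stood apart for Id3 (274 CPM) and Cd200 (11.5 CPM), library 11 for Rgs2 (21.6 CPM), Enpp6 (1.08 CPM) and Phex (1.26 CPM), library 13 for Tead1 (9.30 CPM) and library 14 for Hey1 (1.48 CPM) and Dmp1 (0.222 CPM). Arthritic CD200+ library 5 stood apart for Pde4b (1601 CPM) and for Dmp1, which was at 0 there and at 217 to 280 CPM in the other 4. Among non-immunized CD200+ libraries, library 1 stood apart for Phex (906 CPM), and library 4 for Id1 (119 CPM).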

How the results depend on the processing

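The calls of Runx2, Sp7 and Alpl in both comparisons of CD105+ cells held in each alternative that tested them, with adjusted p up to 0.0373 in CD105+ against arthritic CD200+ cells and up to 0.0277 against non-immunized CD200+ cells. Runx2 was not tested in the fit of those 2 arthritic groups alone, and Dlx3 was not tested under the strict filter. Kazald1 lost its call against non-immunized CD200+ cells with spike-in scaling, with no filter and in the fit of 2 groups (adjusted p = 0.240, 0.0633 and 0.0614). Against the same cells, Dlx5 and Pth1r passed without the 3 libraries of over 80% spike-ins (adjusted p = 0.0433 and 0.0468), with DESeq2 (0.0400 and 0.0219) and with voom. Dlx3 changed sign on the log2 scale: in CD105+ against arthritic CD200+ cells it was 1.44 with spike-in scaling, 0.20 with voom and -2.50 (without library 14) to 0.32 (without library 6) with 1 library left out. In arthritic against non-immunized CD200+ cells it was -3.09 (without library 6) to 0.25 (without library 1). None of these passed the test. Genes called in CD105+ against arthritic CD200+ cells numbered 1692, and 545 with spike-in scaling, 4624 with voom and 3565 with DESeq2, with 1090 (without library 14) to 1794 when 1 library was left out. Of the 8 genes, 3 were called in every fit with 1 library left out and 6 with voom, where 2513 of 15015 genes were called lower. Against non-immunized CD200+ cells 1982 were called, and 278, 4993 and 4102 under the same settings, with 1308 (without library 14) to 2353 with 1 library left out and 3 to 5 of the 8 genes. In arthritic against non-immunized CD200+ cells voom called 4 and DESeq2 303, with 0 to 2 when 1 library was left out. The cause was not tested. No paired analysis was possible because the labels give each library a number of its own. The libraries with over 80% spike-ins have the fewest counts on genes, which limits what their zeros show.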
